A study of Mus musculus with 12 samples.

Results

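The CpG sites described here carry a G before and a C after the CpG, so that the 4 bases GCGC read the same on both strands and a C follows the CpG on either strand. They are autosomal sites of the count matrix that stand apart from other CpG sites, with 5 or fewer CpG rows, the site itself included, within 100 bp on each side. Sequence was read from the forward strand of mm10 (GRCm38), and 590802 of the 15761875 isolated autosomal sites, out of 21867550 CpG sites in all, had this core. Neither the core nor the spacing uses a measured methylation value. The sites are called GCGC sites below.

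DNMT3A and DNMT3B are the de novo DNA methyltransferases, which add a methyl group to cytosine of CpG sites that carry none. Both enzymes contact the bases around the CpG through their catalytic domain, and the bases just outside it affect how readily a site is methylated. DNMT1 copies methylation to the new strand after replication, and a cell without it does not copy what is set de novo. Because GCGC is its own reverse complement, an enzyme that reads the flank on either strand meets the same G before and C after the CpG, and only the bases farther out differ between the strands.

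CpG methylation was measured by enhanced reduced representation bisulfite sequencing (eRRBS), which sequences bisulfite-treated DNA fragments cut by the enzymes MspI, BfaI and MseI, in 12 lines of mouse embryonic stem (ES) cells. All lines, the WT controls included, are triple knockout (TKO) for Dnmt1, Dnmt3a and Dnmt3b and express a human enzyme from the pPyCAGIZ vector, not from its own gene. The labels give selection in 50 µg/ml Zeocin for 10 days, the study's methods a longer time, and the lines were kept in 25 µg/ml. There are 6 groups of 2 lines: WT DNMT3A, WT DNMT3B set a, DNMT3B N656I, WT DNMT3B set b, DNMT3B K777A and DNMT3B N779A. N656I, K777A and N779A are single amino acid replacements in the catalytic domain of DNMT3B. WT set a was the control of DNMT3A and N656I, and WT set b that of K777A and N779A, so that the comparisons of each pair share their control lines. The sources name pooled and single-cell-derived lines without saying which kind each library is. Bisulfite conversion was checked in the study with unmethylated lambda DNA, which was not analysed here, and neither was a line without enzyme.

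The bases 2 and 3 positions away from the CpG give 136 GCGC contexts once both strands are merged. The contexts that the results turn on are shown with the GCGC core in capitals and the 2 bases on either side in lower case. Ranks are among contexts with at least 20 sites in each line of the group. The first 6 had the highest and the lowest methylation in the DNMT3A lines, the next 2 differed most between DNMT3B mutants and WT DNMT3B, and the last had the lowest methylation in WT set a and is a substrate that the study used as one disfavoured by DNMT3B.
Highest in DNMT3A: ttGCGCaa
Second in DNMT3A: gtGCGCaa
Next in DNMT3A: gtGCGCac
Lowest in DNMT3A: ccGCGCcg
Second lowest in DNMT3A: ccGCGCtc
Next lowest in DNMT3A: caGCGCgg
Most lowered in N656I: caGCGCta
Most raised in K777A: tcGCGCaa
Reference substrate: agGCGCcc
A second CpG lies 2 bp away wherever the base before the core is c or the base after it is g, as in ccGCGCcg and tcGCGCaa.

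The libraries held between 16224222 and 36029921 reads on CpG sites. Between 27450 and 290423 GCGC sites per line had a read, and 881 to 21823 had at least 10. Of all GCGC sites, 417823 had a read in at least 1 line, 172979 had none in any line, and 1330 were read in all 12 lines. One library stood apart: WT set a replicate 2 had the fewest covered GCGC sites, at 16.4 reads per covered site, against 2.30 to 5.21 in the other lines. Of its GCGC sites with at least 10 reads, 1.70% had a methylation level between 20% and 80%, against 17.8% in WT set a replicate 1. The part of this in the results was not tested, and values without this library stand beside the levels, the relative levels and the counts of called contexts in the comparisons of DNMT3A and N656I with set a.

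GCGC sites carried methylation near the middle of the scale in both DNMT3A lines and far less in every DNMT3B line. For each site with a read, the methylated share of its reads was taken, and a line's level is the average of these shares. DNMT3A replicates 1 and 2 stood at 49.5% and 49.4%. The WT DNMT3B lines had 8.80% and 9.09% in set a and 7.28% and 6.84% in set b. In the N656I lines it was 4.68% and 3.40%. The K777A lines had 6.27% and 6.88%, and the N779A lines 6.38% and 7.48%. Both DNMT3A lines lay above all 10 DNMT3B lines, both N656I lines lay below all other lines, and the K777A and N779A lines overlapped WT set b.
The difference between DNMT3A (49.4% ± 0.0333, SD, n = 2) and WT set a (8.95% ± 0.206) was 40.5 percentage points, which exceeds the SD of either group many times over (two-sided exact permutation test, p = 0.33; with 2 lines a side no smaller p is possible). N656I (4.04% ± 0.906) lay 4.90 percentage points below WT set a (exact permutation test, p = 0.33). K777A (6.58% ± 0.433) and N779A (6.93% ± 0.778) lay 0.479 and 0.122 percentage points below WT set b (7.06% ± 0.313), and their lines overlapped those of set b (exact permutation test, p = 0.67 and p = 1.00). The K777A difference was −0.173 without K777A replicate 1, −0.258 without WT set b replicate 1 and −0.785 without K777A replicate 2, and that of N779A turned to 0.428 without N779A replicate 1 and 0.0994 without WT set b replicate 1. Against the WT lines of the other set, N656I lay 3.01, K777A 2.37 and N779A 2.01 percentage points lower, with the lines of both groups apart in each (exact permutation test, p = 0.33). Both lines of WT set a lay above both of set b, by 1.89 percentage points on average (exact permutation test, p = 0.33). Without WT set a replicate 2, the differences of DNMT3A and N656I from set a were 40.6 and −4.76 percentage points, and that of set a from set b was 1.74. At sites with at least 10 reads the levels were 50.0% and 49.2% for DNMT3A, and 8.82% and 7.40% for WT set a.

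Set against the other isolated CpG sites of the same line, GCGC sites were the more methylated sites in DNMT3A cells and the less methylated sites in DNMT3B cells. All other isolated sites together had 40.3% and 40.1% methylation in the DNMT3A lines, so that GCGC sites had 1.23 times their level in both. In the WT DNMT3B lines the other sites had 18.9%, 17.8%, 15.8% and 14.5%, and GCGC sites had between 0.459 and 0.509 times that level. The ratio was 0.282 and 0.266 in the N656I lines, 0.839 and 0.803 in the K777A lines, and 0.505 and 0.514 in the N779A lines. In 10 of 10 DNMT3B lines, and in neither DNMT3A line, GCGC sites lay below the other isolated sites.
The contrast was also expressed as the log2 odds of methylation (methylated share over unmethylated share) of GCGC sites minus that of the other isolated sites. It was 0.54 ± 0.0043 for DNMT3A, −1.19 ± 0.107 for WT set a, −2.04 ± 0.0268 for N656I, −1.24 ± 0.0350 for WT set b, −0.31 ± 0.0496 for K777A and −1.08 ± 0.0093 for N779A (SD, n = 2). Relative to set a, DNMT3A was higher by 1.74 and N656I lower, at −0.84. Relative to set b, K777A was higher by 0.93 and N779A by 0.16. The level of GCGC sites themselves was not higher in K777A than in set b, while the other isolated sites had 7.48% and 8.57% in the K777A lines against the 15.8% and 14.5% of set b. In each of these 4 comparisons the lines of both groups were apart (exact permutation test, two-sided p = 0.33). Without WT set a replicate 2, the first 2 differences were 1.81 and −0.77.

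**Figure D1:**
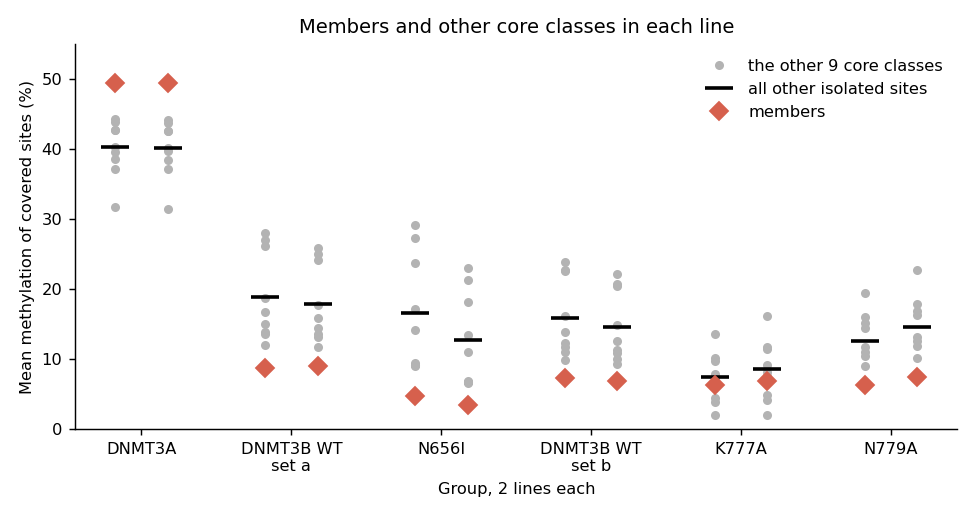
Mean methylation of covered sites (y axis, %) in each of the 2 lines of 6 groups (x axis), for GCGC sites (diamonds), each of the other 9 strand-merged classes of the bases next to the CpG (grey points) and all other isolated sites together (bars). GCGC sites are the highest class in both DNMT3A lines, at 49.5% and 49.4%, the lowest in 8 DNMT3B lines, and class 7 of 10 in both K777A lines.

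The bases next to the CpG form 10 core classes when strands are merged. GCGC was the most methylated class of 10 in both DNMT3A lines, where the next class had 44.4% and 44.2%. It was the least methylated class in all 4 WT DNMT3B lines, in both N656I lines and in both N779A lines. The next class above had 11.98% and 11.82% in WT set a, while in the N779A lines it was GCGA, at 6.76% and 7.76%, close to the GCGC sites. In the K777A lines GCGC ranked 7 of 10, and the class that ranked lowest was CCGG, at 2.06% ± 0.0207 (SD, n = 2). CCGG had 23.0% ± 1.24 in WT set b. Across the DNMT3B groups the level of GCGC sites thus ranged from 4.04% to 8.95%. CCGG, another palindromic class, had the widest range of the 10 classes, from 2.06% to 27.0%. Levels ran from 7.26% to 13.4% for GCGA, 7.96% to 13.8% for ACGC and 4.73% to 11.9% for CCGC. These classes share a base next to the CpG with GCGC.

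At the level of single bases, thymine 2 positions before the CpG went with the highest methylation in 10 of 12 lines, in DNMT3A and DNMT3B cells alike. Each GCGC site was counted once for each strand, by the base 2 positions before the CpG on that strand. With thymine the level was 52.6% and 52.4% in the DNMT3A lines, and with adenine 47.3% and 47.2%. In WT set a it was 10.6% and 10.8% with thymine and 7.64% and 7.89% with adenine, and in set b 8.79% and 8.26% against 6.002% and 5.73%. Thymine lay above and adenine below the mean of all GCGC sites in 12 of 12 lines. The exceptions to thymine as the highest base were the N656I lines, with 6.84% and 5.09% for cytosine and 5.71% and 4.03% for thymine.
Cytosine at this position stood on opposite sides in DNMT3A and DNMT3B cells. It went with the lowest level in both DNMT3A lines, at 45.0% and 45.5%, and with a level above the mean of GCGC sites in all 10 DNMT3B lines, such as 10.5% and 9.99% in WT set a. Relative to all GCGC sites of the line, its log2 odds was −0.24 ± 0.0243 for DNMT3A, 0.21 ± 0.0904 for WT set a, 0.59 ± 0.0197 for N656I, 0.26 ± 0.0150 for WT set b, 0.06 ± 0.0273 for K777A and 0.05 ± 0.0239 for N779A (SD, n = 2). Such a cytosine is itself part of a second CpG 2 bp away, so the base and the neighbouring CpG cannot be told apart.
In this count by strand, guanine 2 positions away went with the lowest level only in the K777A lines, at 4.96% and 5.25%. With thymine these lines had 7.86% and 9.04%. Guanine on both strands also went with the lowest level in other groups, as given below. In WT set b guanine had 7.02% and 6.46% and in the DNMT3A lines 49.4% and 49.5%.
With the same base on both strands, the order of the bases was not the same. Guanine then had the lowest level in both lines of WT set a, WT set b, K777A and N779A, and adenine in both N656I lines. Cytosine then lay above thymine in both lines of WT set b, N656I and N779A. In WT set b thymine had 8.30% and 7.81%, cytosine 10.0% and 11.6%, adenine 5.36% and 5.21% and guanine 4.19% and 3.63%. GCGC sites with thymine 2 positions before the CpG on both strands stood at 57.3% and 57.7% in DNMT3A cells, and at 10.0% and 11.7% in K777A cells. With guanine on both strands the levels were 49.3% and 49.1% in DNMT3A cells, 3.53% and 3.61% in K777A cells and 4.98% and 5.56% in WT set a. With adenine on both strands, the N656I lines had 2.43% and 1.90% and the lines of WT set a 6.997% and 7.09%.

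**Figure D2:**
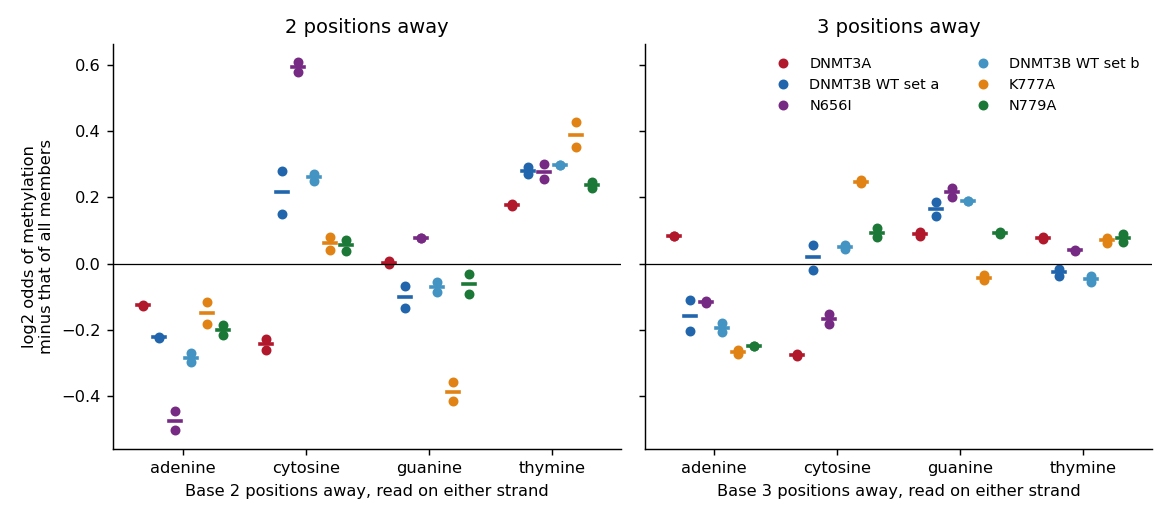
Log2 odds of methylation of GCGC sites with a given base minus that of all GCGC sites of the same line (y axis), by the base 2 positions (left) or 3 positions (right) before the CpG on either strand (x axis); points are the 2 lines of each group and dashes their mean. Cytosine 2 positions away lies at −0.24 in DNMT3A and at 0.59 in N656I, thymine lies above 0 in all lines, and guanine lies at −0.39 in K777A.

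The lowest base 3 positions away was not the same in DNMT3A and in WT DNMT3B cells. In DNMT3A cells cytosine had the lowest level, with 44.6% and 44.7%, and the other 3 bases lay between 50.8% and 51.1%. In the WT DNMT3B lines adenine had the lowest level and guanine the highest, with 7.73% and 8.47% against 9.89% and 9.95% in set a, and 6.36% and 6.09% against 8.21% and 7.71% in set b. Cytosine, the lowest base of DNMT3A cells, had the highest level in both K777A lines, at 7.33% and 8.09%, where adenine had 5.29% and 5.77%. In the N656I lines cytosine was lowest, with 4.15% and 3.08%, and guanine highest, with 5.44% and 3.89%. The N779A lines had 5.43% and 6.37% with adenine, their lowest base, and between 6.66% and 7.95% with the other 3.

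The size of the base effects was compared as a span, the log2 odds of the highest base minus that of the lowest. For the bases 2 positions away it was 0.44 and 0.40 in the DNMT3A lines, 0.51 and 0.49 in WT set a, 0.59 and 0.57 in WT set b, and 0.43 and 0.44 in the N779A lines. The N656I lines had the widest span, 1.08 and 1.05, and the K777A lines had 0.71 and 0.84. N656I lay 0.56 above WT set a and K777A 0.20 above WT set b, while N779A lay 0.14 below set b and DNMT3A 0.08 below set a; the lines of both groups were apart in each (exact permutation test, two-sided p = 0.33). The N656I difference was 0.26 without the sites that have a CpG 2 bp away, and 1.14 on the sites read in all 12 lines. The K777A difference was 0.39 outside soft-masked sequence, 0.13 without K777A replicate 2 and −0.00 on the sites read in all 12 lines, and the DNMT3A difference was 0.01 outside soft-masked sequence, and that of N779A was 0.13 at sites with at least 10 reads, so that these 3 directions did not hold in every setting.
For the bases 3 positions away, spans were between 0.26 and 0.52 in all 12 lines. K777A lay 0.13 above WT set b (exact permutation test, two-sided p = 0.33), and the difference was 0.24 outside soft-masked sequence and −0.30 on sites read in all 12 lines. The differences of DNMT3A and N656I from set a were 0.04 and 0.06, with overlapping lines, and without WT set a replicate 2 they were −0.02 and −0.01. That of N779A from set b was −0.03 and turned to 0.08 at sites with at least 5 reads.
The widening of the span 2 positions away in N656I was set, as a description, beside that of the other palindromic cores. In TCGA sites it was 0.13 ± 0.0158 for WT set a and 0.84 ± 0.0070 for N656I (SD, n = 2). In ACGT sites the span was 1.06 ± 0.0976 and 1.203 ± 0.0170, and in CCGG sites 0.64 ± 0.0201 and 0.91 ± 0.0161. Within WT set a, GCGC sites at 0.50 ± 0.0138 lay between TCGA and CCGG sites, and in DNMT3A cells GCGC sites at 0.42 ± 0.0277 lay between CCGG (0.33 ± 0.0020) and TCGA (0.73 ± 0.0138).

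The bases 3 and 2 positions before the CpG formed a pair on either strand, which gave 16 classes. The flank pair GT had 55.8% and 55.4% methylation in the DNMT3A lines and was the highest there. By the mean of the lines it was also the highest in WT set a, at 12.12% and 12.02%, where GC had 13.1% and 10.6%, and in N779A, at 8.48% and 10.0%. The flank pair CC was the lowest in DNMT3A, at 34.0% and 34.2%, where the next lowest by the mean was CA, at 43.8% in both lines. In WT set a CC had 10.2% and 8.85%, close to the level of all GCGC sites. GC was the highest flank pair in N656I, at 9.11% and 6.69%, and in WT set b, at 10.7% and 10.4%. GG was the lowest in K777A, at 3.71% and 3.98%, and CT the highest there, at 8.66% and 9.92%. CA was the lowest in N656I, at 2.98% and 2.31%.

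**Figure D3:**
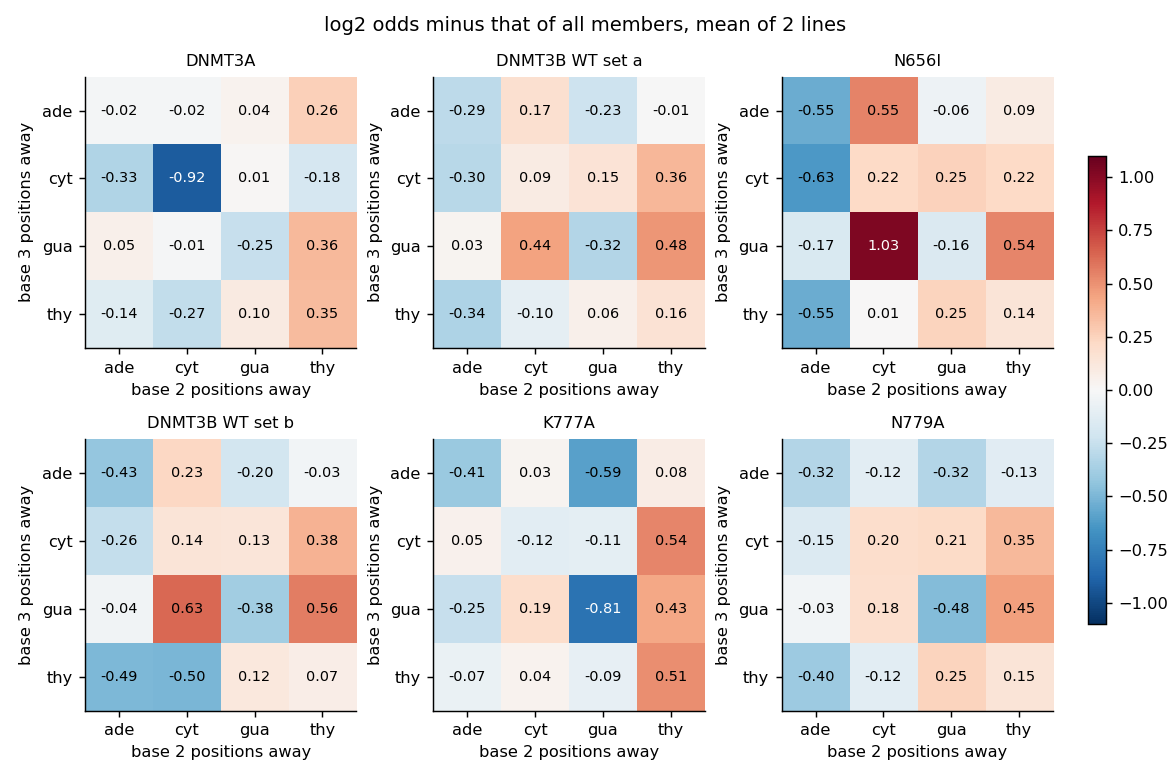
Log2 odds of methylation of GCGC sites minus that of all GCGC sites of the line, as the mean of 2 lines (colour and printed value), for each base 3 positions (rows) and 2 positions (columns) before the CpG on either strand, in 6 panels for the 6 groups; ade, cyt, gua and thy are the 4 bases. The pair of cytosines is lowest in DNMT3A, guanine with cytosine is highest in N656I at 1.03, and the pair of guanines is lowest in K777A.

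As a description, additive terms for the bases of both positions took up 61.1% to 66.5% of the spread of log2 odds over GCGC contexts in DNMT3A cells, and 82.3% and 88.6% in K777A cells. The lowest shares were 36.1% in N779A replicate 2, 40.7% in WT set a replicate 2 and 41.7% in N779A replicate 1. These shares came from least squares weighted by the number of sites over 122 to 135 contexts per line. The bases 2 positions away alone took up 27.1% to 29.0% in DNMT3A, less than those 3 positions away (34.6% to 37.2%). In the 10 DNMT3B lines the bases 2 positions away took up more than those 3 positions away, for example 62.6% against 10.9% in N656I replicate 1. Depth differs between the lines, and its part in these shares was not tested.

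A second CpG 2 bp away on 1 side went with 44.7% and 45.4% methylation in the DNMT3A lines, against 49.9% and 49.8% without one. In the N656I lines the levels were 6.27% and 4.65% against 4.52% and 3.27%, and with such a CpG on both sides 11.4% and 8.63%. In WT set a they were 10.0% and 10.1% against 8.67% and 9.01%, and 14.1% and 8.72% with both sides. In WT set b they were 8.36% and 7.73% against 7.17% and 6.74%, and 10.0% and 11.6% with both sides. Sites with a CpG on both sides numbered between 115 and 1937 per line. The K777A and N779A lines had 6.27%, 7.27%, 6.51% and 7.71% with 1 such CpG and 6.26%, 6.85%, 6.37% and 7.46% without. Leaving out all these sites removes every site with cytosine 2 positions away, so cytosine cannot be compared there. Of the remaining bases, thymine had the highest mean in each group, with 52.5% ± 0.121 in DNMT3A and 10.6% ± 0.172 in WT set a. Adenine had 47.5% ± 0.127 and 7.77% ± 0.220 (SD, n = 2).

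Single contexts were compared with limma on the log2 odds of all strand-merged contexts of 3 bases on each side of the CpG with at least 20 sites per line, each line centred on its median context, so that a change is relative to that of all contexts. In DNMT3A cells, 103 of 122 GCGC contexts tested were higher than in WT set a and 0 lower at an adjusted p of 0.05 (Benjamini-Hochberg), while 31.7% of all 2022 contexts were called higher and 34.1% lower. The median change was 1.41 over GCGC contexts and 0.04 over all contexts. Without the centring, the median over all contexts was 1.85 and that over GCGC contexts 3.23. Without WT set a replicate 2, 122 of 128 were higher, against 39.2% of all contexts. A fit with 1 line left in a group takes its spread from the pair of the other group, which the lone line is assumed to share, so such counts say nothing about stability. A quasi-binomial regression called 63 higher and 0 lower, against 13.9% and 20.03% of all contexts.
Among GCGC contexts, the reference substrate agGCGCcc had the largest change. It was methylated to 50.4% and 50.2% in the DNMT3A lines and to 4.23% and 2.91% in WT set a, a log2 change of 2.94 (SE 0.19, limma adjusted p = 0.0011). Next were agGCGCct, with 52.1% and 52.7% against 5.06% and 3.43% (log2 change 2.79), and ttGCGCaa, with 64.6% and 67.5% against 8.17% and 7.91% (log2 change 2.59, SE 0.10, limma adjusted p = 0.00092).
The contexts with the highest methylation in DNMT3A cells all had thymine 2 positions before the CpG on both strands. After ttGCGCaa they were gtGCGCaa, at 63.4% and 62.3%, and gtGCGCac, at 62.2% and 61.0%. The lowest of those with at least 20 sites per line were ccGCGCcg, at 19.3% and 31.8% over as few as 28 sites, ccGCGCtc, at 30.8% and 26.7%, and caGCGCgg, at 25.3% and 32.8%, and each had the flank pair CC on 1 strand. Neither of the last 2 passed the test against WT set a. The log2 change was 0.16 for ccGCGCtc (limma adjusted p = 0.65) and 0.57 for caGCGCgg (limma adjusted p = 0.25), and ccGCGCcg had too few sites in WT set a. Over the 128 contexts with at least 20 sites per DNMT3A line, mean levels ran from 25.6% to 66.0%, with a median of 47.8%.
In WT set a, mean levels ran from 3.57% to 17.9% over 122 contexts. The 3 highest were gcGCGCaa (12.6% and 23.3%), cgGCGCag (11.9% and 20.6%) and gcGCGCac (18.6% and 13.6%), and the lines were far apart in the first 2. The lowest were agGCGCcc, aaGCGCgc (6.84% and 0.952%) and caGCGCga (5.09% and 3.10%).

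In N656I cells, 47 of 122 GCGC contexts were lower than in WT set a and 0 higher, against 21.1% of all 2022 contexts called lower and 26.4% higher. The median change was −0.59 over GCGC contexts and 0.02 over all. Without the centring 93 were lower and 0 higher, against 34.8% and 0.247% of all contexts. The medians were then −1.22 over GCGC contexts and −0.61 over all. With N656I replicate 1 or replicate 2 left out, and the spread taken from WT set a alone, limma called 0 of all 2022 contexts, 0 GCGC contexts among them (31 and 32 at an unadjusted p under 0.05), and the median change over GCGC contexts was −0.55 and −0.62. With the spread taken from the N656I lines alone, without WT set a replicate 1, 76 GCGC contexts were lower and 6 higher, against 26.2% and 32.6% of all contexts. Without WT set a replicate 2, 52 were lower and 3 higher, against 22.9% and 27.2%. The quasi-binomial regression called 3 lower and 0 higher, against 1.09% and 1.24% of all contexts, so that the 2.46% of GCGC contexts it called lay near the 2.32% of all contexts.
The largest fall was at caGCGCta, methylated to 1.80% and 1.59% in N656I and to 7.002% and 6.40% in WT set a (log2 change −1.43, SE 0.22, limma adjusted p = 0.0091). It was followed by aaGCGCta, at 1.58% and 1.37% against 4.99% and 6.59% (log2 change −1.40), and ctGCGCga, at 4.25% and 1.84% against 11.8% and 8.72% (log2 change −1.32). By the base 2 positions away on either strand, 32 of the 58 contexts with adenine, 26 of the 57 with thymine, 13 of the 53 with guanine and 6 of the 45 with cytosine were lower. Among contexts of all classes with the same bases, 34.8%, 24.1%, 16.5% and 5.0% were called lower, in the same order of bases. The agGCGCcc context, at 3.86% and 2.58% in N656I, had a log2 change of 0.43 and did not pass the test (limma adjusted p = 0.21).

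In K777A cells, 101 of 128 GCGC contexts were higher than in WT set b relative to the median context and 1 was lower, against 43.7% of all 2057 contexts called higher and 36.0% lower. In either direction 79.7% of GCGC contexts and 79.7% of all contexts were called. But without the centring 20 were higher and 43 lower, against 5.74% and 67.5% of all contexts. The median change over GCGC contexts was 0.84 with and −0.17 without the centring, and that over all contexts 0.17 and −0.84, so that GCGC contexts lay 0.67 above all contexts in both. The quasi-binomial regression called 60 higher and 0 lower, against 32.1% and 30.8% of all contexts.
The largest rises were at tcGCGCaa, with 12.6% and 11.3% in K777A against 5.20% and 3.75% in WT set b (log2 change 2.40, SE 0.18, limma adjusted p = 0.00014), acGCGCcg, with 4.99% and 8.69% against 0.00% and 3.11% over as few as 23 sites (log2 change 2.29, SE 0.49), and ttGCGCaa, with 12.1% and 16.1% against 6.26% and 6.73% (log2 change 2.21, SE 0.14). The lines of both groups were apart in all 3. For acGCGCcg, with a WT line at 0.00%, the size of the change depends on the offset added to each level. It was 1.55 with reads pooled and 1.88 by the quasi-binomial regression, and did not pass the test in either (limma adjusted p = 0.063, quasi-binomial adjusted p = 0.30). The context called lower was acGCGCct, at 2.99% and 3.17% against 9.63% and 6.86% (log2 change −0.46, SE 0.17, limma adjusted p = 0.048), and at sites with at least 5 reads its change was 0.26. By the base 2 positions away on either strand, 51 of the 58 contexts with adenine, 50 of the 58 with thymine, 35 of the 51 with cytosine and 37 of the 55 with guanine were higher. Among contexts of all classes with the same bases, 44.8%, 51.8%, 36.9% and 38.3% were called higher. The median changes of GCGC contexts were 0.91 with adenine, 0.92 with thymine, 0.71 with cytosine and 0.56 with guanine, against 0.17, 0.36, 0.02 and 0.09 over all classes.

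In N779A cells, 12 of 128 GCGC contexts were higher than in WT set b and 4 lower, shares of 9.38% and 3.13% that lay below those of all 2057 contexts, 23.8% and 28.9%. Without the centring 5 were higher and 11 lower, against 6.71% and 28.9% of all contexts. The median change was 0.08 over GCGC contexts and 0.01 over all. The 3 largest rises were at tcGCGCaa (6.78% and 12.98% against 5.20% and 3.75%, log2 change 1.19), ccGCGCac (11.7% ± 0.377 against 6.87% ± 0.467, SD, n = 2, log2 change 0.96, SE 0.09, limma adjusted p = 0.0035) and gtGCGCga (8.55% and 9.13% against 6.13% and 5.41%, log2 change 0.76). The largest falls were at atGCGCgc (5.62% and 5.24% against 9.91% and 9.79%, log2 change −0.78, but 0.37 with 2 or fewer CpG rows within 100 bp), gcGCGCaa (7.47% and 6.16% against 12.5% and 10.5%, log2 change −0.68) and atGCGCac (4.997% and 5.87% against 9.05% and 8.37%, log2 change −0.59, SE 0.09, limma adjusted p = 0.0092). The count was 7 at sites with at least 5 reads, where 27.2% of all contexts were called. At sites with at least 10 reads limma called 0 of 61, with 4 at an unadjusted p under 0.05, against 5.41% of all contexts. It was 8 and 6 without N779A replicate 1 and replicate 2, against 32.4% and 35.6% of all contexts.
Between the WT sets, limma called 0 of 122 GCGC contexts and 0% of all 2022, with 9 GCGC contexts at an unadjusted p under 0.05, and the quasi-binomial regression called 0.

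**Figure D4:**
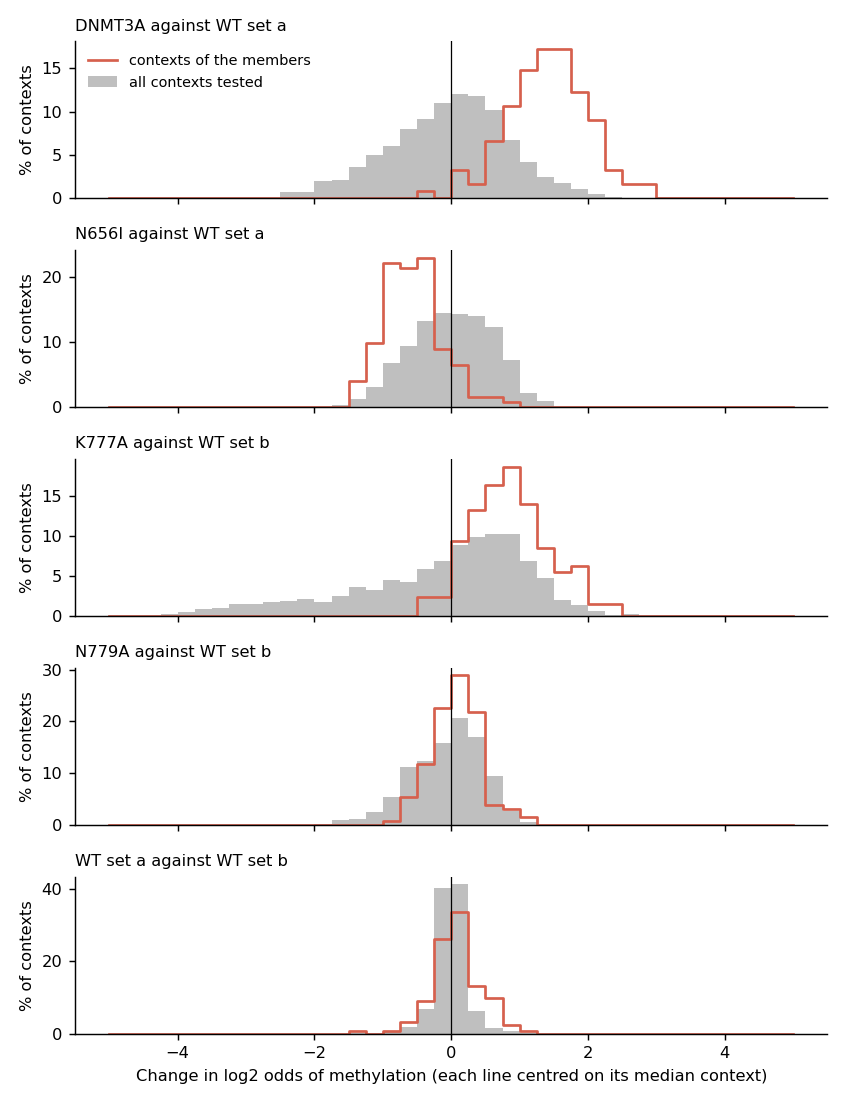
Share of contexts (y axis, %) by their change in log2 odds of methylation between the groups, each line centred on its median context (x axis), for GCGC contexts (red outline) and all contexts tested (grey), in 5 panels for the 5 comparisons. GCGC contexts lie to the right of all contexts for DNMT3A (median 1.41) and K777A (0.84; −0.17 without the centring), to the left for N656I (−0.59) and near 0 for N779A (0.08) and for the WT sets (0.08).

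In 16 contexts the whole 8 bases read the same on both strands, so that each site carries 1 flank pair on both strands. In DNMT3A cells ttGCGCaa, gtGCGCac (62.2% and 61.0%) and atGCGCat (57.4% and 58.5%) were the highest of these, and ctGCGCag had 49.0% and 52.4%. With adenine in the place of thymine, gaGCGCtc had 55.8% and 53.1%, aaGCGCtt 51.2% and 52.4%, taGCGCta 44.7% and 44.6% and caGCGCtg 39.8% and 38.9%, so that the contexts with either base overlapped. The context ccGCGCgg had 11.4% and 19.4%, but it and tcGCGCga, acGCGCgt and cgGCGCcg had under 20 sites in at least 1 line. In the K777A lines ttGCGCaa and ctGCGCag (13.2% and 15.3%) lay above gtGCGCac (10.5% and 11.9%), and the lowest of the 12 well-covered contexts were ggGCGCcc (2.36% and 3.05%) and agGCGCct (2.99% and 3.40%). In N656I the highest was gcGCGCgc, at 12.7% and 11.4%, and the lowest by the mean were caGCGCtg and taGCGCta, between 1.82% and 2.13%.
Across the 122 contexts with at least 20 sites in all lines, Pearson's r of the log2 odds between the 2 lines of a group was 0.92 for DNMT3A, 0.90 for K777A, 0.79 for N656I, 0.77 for WT set b, 0.74 for N779A and 0.43 for WT set a. Between DNMT3A and DNMT3B lines r was between 0.01 and 0.36. Contexts are not independent replicates and share base composition and libraries, so no p-value is given.

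GCGC sites near gene starts had lower levels than those farther away in every line. Within 1000 bp of the start of a protein-coding transcript lay 2.57% of GCGC sites, against 2.12% of all isolated sites. Methylation there was 28.2% ± 0.0994 in DNMT3A, 4.81% ± 0.988 in WT set a, 2.05% ± 0.606 in N656I, 3.32% ± 0.419 in WT set b, 3.30% ± 0.0038 in K777A and 4.04% ± 0.280 in N779A (SD, n = 2). This was 0.409 to 0.599 times the level farther away, lower in 12 of 12 lines, and for other isolated sites the ratio was 0.537 to 0.609. Exons had 51.3% ± 0.253 in DNMT3A and 10.1% ± 0.301 in WT set a, introns 51.8% ± 0.0841 and 9.66% ± 0.0846, and sites outside protein-coding genes 48.2% ± 0.0170 and 8.36% ± 0.280. Soft-masked sequence, which marks repeats, held 26.3% of GCGC sites, with 51.4% ± 0.0328 methylation in DNMT3A and 10.3% ± 0.154 in WT set a, against 48.9% ± 0.0551 and 8.57% ± 0.207 outside it. With 1 to 5 CpG rows within 100 bp, the level in DNMT3A cells stayed between 47.9% and 50.6% and that in WT set a between 8.27% and 9.35%.
Single sites with at least 10 reads had a median level of 50.0% in both DNMT3A lines and of 0.00% in all 10 DNMT3B lines, but the median of other isolated sites was also 0.00% in 7 of these 10 lines. Of GCGC sites with at least 10 reads, 10.6% and 22.2% had no methylated read in the DNMT3A lines and 54.2% and 51.5% had a level of at least 50%. In WT set a 68.1% and 85.4% had no methylated read, in set b 83.03% and 77.0%, in N656I 73.2% and 86.0%, in K777A 62.4% and 66.4% and in N779A 77.3% and 67.2%. Of other isolated sites, 46.7% and 76.02% had none in WT set a, 68.5% and 60.1% in set b, 41.03% and 62.3% in N656I, 59.3% and 59.97% in K777A and 62.03% and 49.9% in N779A. A level of at least 50% was reached by 5.02% and 7.05% of GCGC sites in WT set a. It was 5.96% and 4.08% in set b, 0.715% and 1.54% in N656I, 1.48% and 1.90% in K777A and 4.56% and 3.69% in N779A. Of other isolated sites, 14.8% and 16.9% reached it in WT set a, 15.3% and 11.8% in set b and 10.3% and 9.67% in N656I. In K777A 1.75% and 3.11% of them did, and in N779A 10.2% and 9.32%. In the DNMT3A lines 40.9% and 41.3% of other isolated sites reached it, and 15.7% and 29.4% had no methylated read. Depth differs between these lines, and its part in these shares was not tested.

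The 4 GCGC sites with the most reads in their least covered line, leaving out very deep sites, are shown with the core in capitals, as 28 bases of the GRCm38 forward strand. They show what a single site gives at this depth.
Site 1, chr15:8803742-8803769, between genes: aaacgaagaaggGCGCtttgcacaggtc
Site 2, chr19:57795622-57795649, intron of Atrnl1: acctctgttgaaGCGCcagttctcacca
Site 3, chr1:118008335-118008362, between genes: aactgcttataaGCGCaaagtcccaaca
Site 4, chr4:148559421-148559448, intron of Exosc10: gagaagtgctaaGCGCtcttttaacact
Genes are those of GENCODE vM21. The nearest protein-coding gene to site 1 was Slc1a3, 92991 bp away, and that to site 3 Gm7145, 21464 bp away.
At site 1, 14 of 17 reads were methylated in DNMT3A replicate 1 (82.4%, 95% exact binomial interval 56.6% to 96.2%) and 2 of 12 in replicate 2 (16.7%, 2.09% to 48.4%), so that the lines of this group differed. In the 10 DNMT3B lines together it was 2 of 108 reads. At site 2 the DNMT3A lines had 11 of 12 (91.7%, 61.5% to 99.8%) and 8 of 13 (61.5%, 31.6% to 86.1%), and the 10 DNMT3B lines 4 of 95 reads. At site 3 they had 4 of 11 (36.4%, 10.9% to 69.2%) and 4 of 6 (66.7%, 22.3% to 95.7%), and the DNMT3B lines 0 of 77 reads (exact upper limit 4.68%; 3 counts of the total would be 3.90%). At site 4 they had 3 of 7 (42.9%, 9.90% to 81.6%) and 0 of 6 (0.00%, up to 45.9%), and the DNMT3B lines 0 of 63 reads (exact upper limit 5.69%; 3 counts of the total would be 4.76%). At each of sites 1 and 2, 8 of the 10 DNMT3B lines had no methylated read. The reads carry no molecular identifiers, so these intervals cover counting error only.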

How the data were processed

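The deposited matrix holds raw counts that the authors made without normalization, 1 pair for each CpG site and line (reads called methylated, and total reads). According to the submitters' processing notes and the study's methods, Cutadapt (1.12 in the notes; the methods give another version) trimmed the reads, and Bismark 0.18.1 placed them on mm10 through Bowtie 1.2. Both strands of a CpG were collapsed, so strands cannot be compared.

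Here, sites were placed on GRCm38 and the mean of methylated over all reads was taken over covered sites (1 read or more). WT lines were put in set a or b by the letter in their sample label. Group values are means of 2 lines, compared by exact permutation tests in Python 3.11.15 with numpy 2.4.6. Context log2 odds went into limma 3.58.1 under R 4.3.3 (moderated variances with a trend, an offset of 0.5 over the site number, at least 20 sites per line, Benjamini-Hochberg, threshold 0.05). A quasi-binomial regression, other minimum reads (5, 10), other WT lines, a replicate term and leaving out each line were alternatives. Data were simulated with each covered site drawn as methylated or not, without read depth and without further spread between lines. With 200 contexts changed by 1 on the log2 scale, limma called 164 of them for DNMT3A and 146 for N656I, among 2022 contexts. It called 4 unchanged contexts in each. For K777A and N779A it called 172 and 174 of the changed contexts, and 8 and 10 unchanged contexts, among 2057. Named contexts were, per comparison, the 3 largest called changes in each direction, the 3 highest and 3 lowest contexts of DNMT3A and WT set a, the reference substrate and the 16 self-complementary contexts. The members, lists and named contexts were chosen with earlier results of these data known. With 2 lines per group, p-values measure the spread between these lines only.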

Additional observations from a re-analysis of the deposited data

Results flagged for a closer look

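These effects had opposite signs in all lines of the groups compared, in log2 odds of methylation. With 2 lines per group each difference was not tested beyond the exact permutation p of 0.33, and groups of 2 lines are too small to look for single outlying lines.

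GCGC sites against the other isolated sites were at 0.54 in DNMT3A and −1.19 in WT set a, a difference of 1.74. Against all GCGC sites of the line, cytosine 2 positions away was at −0.24 in DNMT3A and 0.21 in WT set a, a difference of −0.46. Adenine 3 positions away was at 0.08 and −0.16 there, a difference of 0.24, and thymine 3 positions away at 0.08 and −0.03, a difference of 0.10. In N656I, guanine 2 positions away was at 0.08 against −0.10 in WT set a, a difference of 0.18, and thymine 3 positions away at 0.04 against −0.03, a difference of 0.067. In K777A, guanine 3 positions away was at −0.04 against 0.19 in WT set b, a difference of −0.23, and thymine 3 positions away at 0.07 against −0.05, a difference of 0.12. In N779A, thymine 3 positions away was at 0.08 against −0.05 in WT set b, a difference of 0.12.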

How the results depend on the processing

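The level of GCGC sites relative to the other isolated sites kept its direction in all 60 alternatives, between 1.54 and 1.84 for DNMT3A, −0.92 and −0.64 for N656I, 0.87 and 1.04 for K777A and 0.11 and 0.29 for N779A. Over all levels, spans and counts, 292 values stayed on their side, 25 moved and 26 reversed. The cause was not tested. Exact permutation p-values cannot fall under 0.33 with 2 lines against 2, or under 0.067 against all 4 WT lines, and say nothing about stability.

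The difference in level of N779A from WT set b, −0.122 percentage points, turned to 0.191 at 5 or more reads, 0.576 at 10 or more, 0.0276 with reads pooled, 0.0190 on sites read in all 12 lines and 0.0664 with 2 or fewer rows, and ran from −0.672 to 0.428 without 1 line each. The span 2 positions away turned for N779A to 0.127 at 10 or more reads, for K777A to −0.00276 on sites read in all 12 lines and for DNMT3A to 0.0113 outside soft-masked sequence. The span 3 positions away turned for N656I to −0.0151 at 5 or more reads, −0.0308 at 10 or more, −0.0547 on sites read in all 12 lines, −0.0356 with 2 or fewer rows, −0.0305 outside soft-masked sequence and −0.00634 without a CpG 2 bp away. For N779A it turned to 0.0849 at 5 or more reads, 0.117 at 10 or more, 0.0412 with reads pooled, 0.0248 with 2 or fewer rows, 0.0638 outside soft-masked sequence and 0.0264 with the other WT lines. For K777A it turned to −0.301 on sites read in all 12 lines, and for DNMT3A to −0.0135 with the other WT lines. Without 1 line each it ran from −0.0222 to 0.111 for DNMT3A and from −0.00818 to 0.125 for N656I.

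Counts of GCGC contexts called in either direction are given with their share of the GCGC contexts tested and the share of all contexts called under the same setting. DNMT3A had 103 (84.4% against 65.8%), but 18 on sites read in all 12 lines (69.2% against 18.8%), 65 with 2 or fewer rows (98.5% against 64.9%), 67 at 100 or more sites (100% against 76.3%), 159 with strands not merged (85.9% against 58.0%) and 63 by quasi-binomial regression (51.6% against 34.0%). N656I had 47 (38.5% against 47.4%), but 26 at 10 or more reads (32.5% against 33.6%), 0 on sites read in all 12 lines (2 at an unadjusted p under 0.05; 1.72% of all contexts), 93 without centring (76.2% against 35.01%) and 3 by quasi-binomial regression (2.46% against 2.32%), and 0 to 82 without 1 line each, where the spread came from the remaining pair. K777A had 102 (79.7% of either), but 6 at 10 or more reads (of 10 tested, against 63.9%), 2 on sites read in all 12 lines (7.69% against 16.9%), 59 with 2 or fewer rows (59.6% against 71.2%), 63 without centring (49.2% against 73.2%) and 60 by quasi-binomial regression (46.9% against 63.0%). N779A had 16 (12.5% against 52.7%), but 7 at 5 or more reads (5.83% against 27.2%), 0 at 10 or more (5.41% of all contexts), 0 on sites read in all 12 lines (0 of all contexts), 6 with 2 or fewer rows (6.06% against 35.1%), 1 by quasi-binomial regression (0.781% against 12.1%) and 10 with the other WT lines (8.20% against 38.3%), and 6 to 15 without 1 line each. Of named contexts, ccGCGCtc turned for DNMT3A to −0.0407 outside soft-masked sequence and from −0.207 to 0.517 without 1 line each, cgGCGCag from −0.158 to 0.842 without 1 line each, acGCGCct for K777A to 0.256 at 5 or more reads and atGCGCgc for N779A to 0.373 with 2 or fewer rows.

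With the replicate number as a replicate block, limma called 105 GCGC contexts for DNMT3A (86.1%, against 60.2% of all contexts), 42 for N656I (34.4% against 39.2%), 99 for K777A (77.3% against 79.6%), 12 for N779A (9.38% against 46.5%) and 0 between the WT sets. Lines of the same number did not deviate together (r between −0.02 and 0.01 over 2022 contexts), so the numbers do not pair the lines.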
